A study of Mus musculus with 6 samples.

Results

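The variable (V) segments of the T cell receptor alpha and beta chains are the genes described here, as read in whole-spleen RNA of mice with and without Was. All genes with a symbol that begins with Trav (alpha chain) or Trbv (beta chain) were taken, and those with a mean of at least 1 normalized count over the 6 libraries were kept. That left 130 segments, 107 Trav and 23 Trbv, of 141 such genes and of 26452 genes in all, and 11 were under the minimum. Nearest the minimum were Trav4d-2, left out at a mean of 0.927, and Trav12d-1 and Trav12n-1, kept at 1.08. A normalized count is a read count divided by the size factor that the authors gave the library, so it compares libraries, but not genes of different length.

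The spleens came from 10-week-old male mice, 3 of the strain 129S6/SvEvTac and of wild type, and 3 with a targeted Was allele (Was -/-, 129S6/SvEvTac-Wastm1Sbs/J). The Was protein drives branching of actin filaments in blood cells, and people who lack it have Wiskott-Aldrich syndrome, an immune deficiency with low platelets. The allele is carried in every cell of the knockout mice, so that differences in T cells cannot be told apart from differences in the cells around them. Each library is 1 animal (KO451, KO452, KO457, WT453, WT454 and WT455), and the comparison asks how the spleen transcriptome differs between the genotypes.

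The libraries held between 30661759 (WT455) and 38402758 (WT454) reads over all genes. Was itself stood at 508, 407 and 409 normalized counts in KO451, KO452 and KO457, and at 4142, 6561 and 6279 in WT453, WT454 and WT455. Its log2 difference, knockout minus wild type, was -3.66 ± 0.25 (SE), with an adjusted p of 0.0117 by limma with Benjamini-Hochberg adjustment over 22071 genes, a call that was lost when any 1 library other than WT453 was left out although no value overlapped between the groups. Markers of T cells were read in every library, and the 12 genes of a T cell list (Cd3e, Cd3d, Cd3g, Cd247, Cd2, Cd5, Cd6, Cd28, Thy1, Lck, Trat1 and Ubash3a) summed to between 20023 and 51894 normalized counts.

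A T cell receptor is a pair of chains, and in most T cells these are alpha and beta. Each developing T cell in the thymus cuts and joins one V segment to one joining (J) segment, with a diversity segment between them in the beta chain, and the joined exon is spliced to a constant region. The V segment gives the chain its leader peptide and most of the surface that meets antigen, and the junction behind it forms the third hypervariable loop. Because each mature T cell uses few of the segments, RNA of a V segment in the spleen comes from the T cells that chose it, and the levels of all segments together depend on how many T cells there are and on how much receptor RNA each one holds. In bulk tissue fewer cells and less RNA per cell cannot be told apart.

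In the GENCODE annotation of GRCm38 the 107 Trav segments lie on chromosome 14 between 52427928 and 53876752, all on the plus strand, ahead of the alpha constant region Trac at 54220521 to 54224206. The 23 Trbv segments lie on chromosome 6 between 40891229 and 41558452. Of these, 22 are on the plus strand ahead of the constant regions Trbc1 (41538218 to 41539881) and Trbc2 (41546730 to 41548352), and Trbv31 lies behind Trbc2 on the minus strand. The annotation calls 124 of the 130 functional V genes and 6 pseudogenes, namely Trav8-2, Trav9n-1, Trav11n, Trav20, Trbv22 and Trbv24. A functional segment is a leader exon and a V exon with a coding sequence of 310 to 377 bases for Trav and 335 to 372 bases for Trbv.

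The end of the coding sequence is where each segment was joined to the rest of its chain, and the ends below show what separates the segments whose values are given later. Each run is the last 60 coding bases, 5′ to 3′ on the coding strand, from the GENCODE transcripts of GRCm38. The capitals mark the first in-frame cysteine codon within the last 30 bases, the conserved cysteine at which the third hypervariable loop begins. They are the 8 Trbv segments with the highest level per length, then Trbv31, then 4 Trav segments that are among the highest or belong to the fixed alpha chains of unconventional T cells.
Trbv13-2: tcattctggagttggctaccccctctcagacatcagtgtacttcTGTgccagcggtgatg
Trbv3: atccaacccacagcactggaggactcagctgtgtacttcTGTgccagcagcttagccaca
Trbv16: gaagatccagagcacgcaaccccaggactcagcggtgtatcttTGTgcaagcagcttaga
Trbv15: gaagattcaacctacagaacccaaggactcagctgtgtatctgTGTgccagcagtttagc
Trbv13-1: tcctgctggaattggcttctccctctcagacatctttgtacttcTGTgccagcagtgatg
Trbv13-3: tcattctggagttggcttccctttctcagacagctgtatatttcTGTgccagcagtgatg
Trbv29: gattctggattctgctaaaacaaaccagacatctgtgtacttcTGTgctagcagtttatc
Trbv1: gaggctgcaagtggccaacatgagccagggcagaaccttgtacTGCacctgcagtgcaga
Trbv31: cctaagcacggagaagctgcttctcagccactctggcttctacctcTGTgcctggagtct
Trav14-2: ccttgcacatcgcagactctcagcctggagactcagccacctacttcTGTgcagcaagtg
Trav12-2: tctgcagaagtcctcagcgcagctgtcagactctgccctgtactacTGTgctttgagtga
Trav11: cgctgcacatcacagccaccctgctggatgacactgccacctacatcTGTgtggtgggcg
Trav1: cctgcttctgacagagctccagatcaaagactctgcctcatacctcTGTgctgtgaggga

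All 103 functional Trav segments and all 21 functional Trbv segments held such a codon, as TGT in 91 Trav and 19 Trbv and as TGC in 12 Trav and 2 Trbv. The letters TGTGC, searched on the coding strand in the last 60 bases, were present in 85 of the 103 Trav and 18 of the 21 Trbv ends.

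The wild-type library WT453 stood apart from the other 5 in its V segments, and this is given first because results for the segments turn on it. The 107 Trav segments summed to 1051, 1635 and 1148 normalized counts in KO451, KO452 and KO457, and to 178, 2470 and 2172 in WT453, WT454 and WT455. The 23 Trbv segments summed to 1972, 3322 and 2204 in the knockout libraries, and to 628, 5392 and 4691 in the wild-type libraries. WT453 was the lowest of all 6 libraries in both sums and WT454 and WT455 were the highest, so the knockout libraries lay between wild-type libraries and the groups overlapped. The depth behind the sums was 173 Trav reads in WT453 against 980 to 3027 in the other libraries, and 609 Trbv reads against 1839 to 6609. The mean of WT454 and WT455 was 13.0 times WT453 for Trav and 8.03 times for Trbv.

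**Figure D1:**
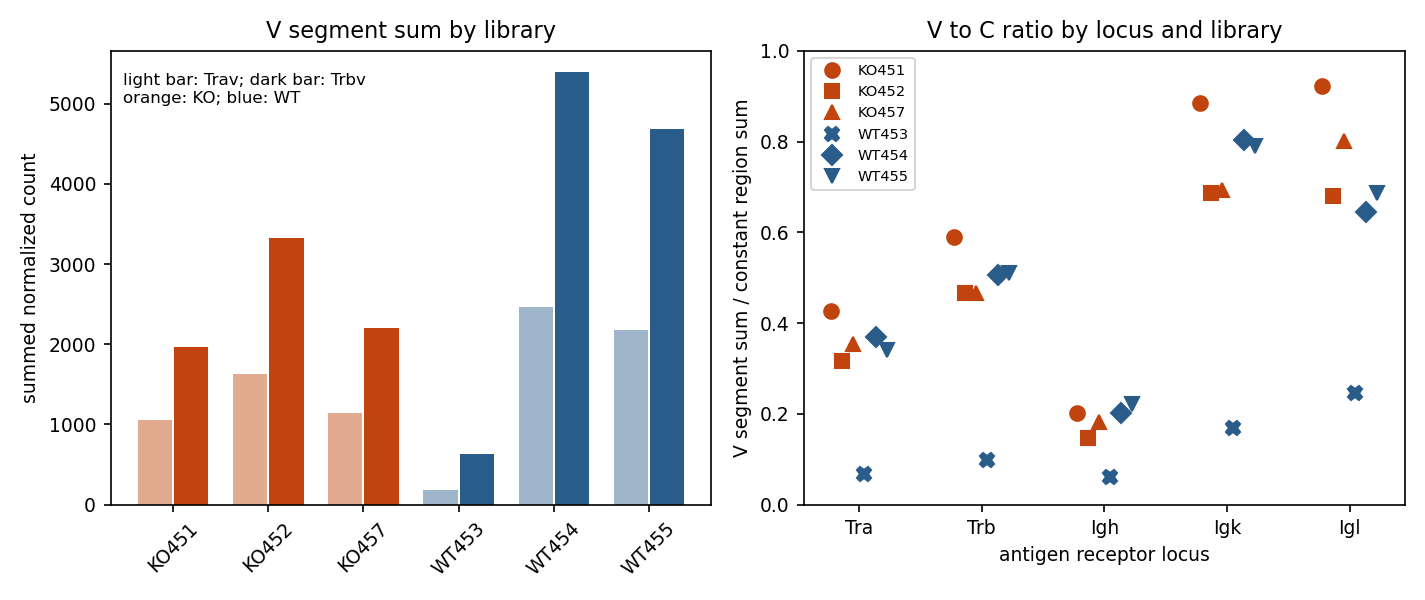
Left, summed normalized count (linear axis from 0) of the Trav segments (light bars) and Trbv segments (dark bars) in each library, knockout in orange and wild type in blue. Right, the ratio of summed V segments to summed constant region (linear axis) for the 5 antigen receptor loci, 1 point per library; WT453 is the lowest point at each locus and the other 5 libraries lie between 0.316 and 0.427 at Tra and between 0.465 and 0.590 at Trb.

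Constant regions did not show a gap of that size. Trac, the constant region of the alpha chain, stood at 2458, 5179 and 3249 normalized counts in the knockout libraries and at 2683, 6699 and 6358 in WT453, WT454 and WT455. Trbc1 and Trbc2, the constant regions of the beta chain, together stood at 3344, 7140 and 4730, and at 6325, 10665 and 9184. WT453 therefore lay within the range of the knockout libraries for both constant regions. The ratio of Trav sum to Trac was 0.427, 0.316 and 0.353 in KO451, KO452 and KO457, 0.0665 in WT453, and 0.369 and 0.342 in WT454 and WT455. The ratio of Trbv sum to Trbc1 plus Trbc2 was 0.590, 0.465 and 0.466 in the knockout libraries, 0.0992 in WT453, and 0.506 and 0.511 in WT454 and WT455. In 5 libraries of both genotypes the ratios thus lay within a narrow band, and WT453 was at 18.4% of their mean for alpha and 19.6% for beta.

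WT453 was also the lowest library at the immunoglobulin loci, the B cell counterpart of these genes. Its V to constant ratio was 31.7% of the mean of the other 5 libraries for Igh, 22.0% for Igk and 33.0% for Igl. Joining segments of the T cell loci were less far off: the ratio of J to constant counts was 0.00884 in WT453 for alpha, against 0.0106 to 0.0122 in the other 5, and 0.00570 for beta, against 0.00593 to 0.00973. Against the mean of WT454 and WT455, the median segment in WT453 stood at 11.7% for Trav and 11.9% for Trbv, the 3 constant regions at a median of 60.6%, the 4 CD3 chains at 37.5%, the 8 other T cell list genes at 32.5% and all 22071 genes at 100.2%. What set the V segments of WT453 apart was not tested. Medians, V sums and most single-gene differences below are given with and without this library. Shares by position are given with all libraries only.

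**Figure D2:**
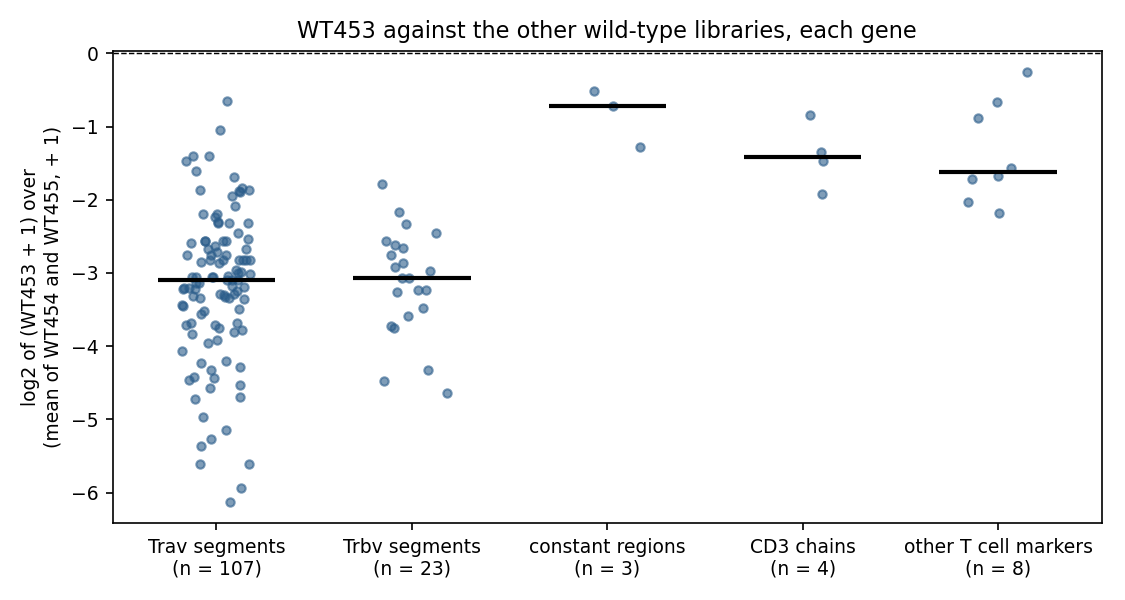
Log2 ratio of (normalized count + 1) in WT453 to that in the mean of WT454 and WT455, 1 point per gene with the median of each set as a black line; points are spread sideways for sight only. The Trav and Trbv medians lie at -3.10 and -3.07, below the medians of the constant regions (-0.72), CD3 chains (-1.41) and other T cell markers (-1.62).

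WT453 held the lowest value, alone, in 95 of the 130 segments (74 Trav and 21 Trbv), where it did so in 25% of all genes tested. It had 0 reads in 61 segments, 57 Trav and 4 Trbv. Counts of segments here and below take 18 Trav pairs with the same coding sequence as separate segments. The reads of such pairs were the same or nearly the same, so these counts hold repeated measurements. A count of 0 allows up to 3 reads, and such limits cover counting error only.

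No segment passed the test between the genotypes. With all 6 libraries limma called 0 of 130 segments at a Benjamini-Hochberg adjusted p under 0.05, where it called 0.00906% of all genes tested (2 of 22071, of which 1 was Was). The lowest adjusted p was 0.420 among Trav and 0.724 among Trbv. At an unadjusted p under 0.05, 1 segment was higher in the knockout (5.5% of all genes) and 0 were lower (5.46%). The log2 difference, knockout minus wild type on the log2(normalized count + 1) scale, was above 0 in 62 of 107 Trav and 10 of 23 Trbv segments. Its median was 0.18 for Trav and -0.04 for Trbv, beside -0.03 for all genes tested, and single segments ran from -2.50 to 1.92 and from -0.93 to 1.06. The authors' deposited table gave 0 of the 130 segments an FDR below 0.05, where 3.58% of all genes had one, and the lowest was 0.162 for Trav13n-3.

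Without WT453 nearly all segments had a difference below 0, though limma again called none. WT453 was set apart by its low values in these same segments. Leaving it out therefore lowered the differences by construction, and the counts below describe the 5 libraries only. The difference was below 0 in 100 of 107 Trav and in 23 of 23 Trbv segments, with medians of -0.94 and -1.06 beside -0.01 for all genes. Limma called 0 of 130 segments in these 5 libraries (0.00906% of all genes), and the lowest adjusted p was 0.130. At an unadjusted p under 0.05, 27 segments were lower, 15 Trav and 12 Trbv (9.67% of all genes), and 1 was higher (8.53%). All knockout libraries lay below both other wild-type libraries in 67 segments, 48 Trav and 19 Trbv (21.2% of all genes), and above both in 2 (19.2%). Summed, WT454 and WT455 averaged 1.82 times the knockout mean for Trav and 2.02 times for Trbv. The Trav median was below 0 only without WT453 among the 6 libraries left out in turn. It was 0.75 without WT454, 0.63 without WT455, 0.30 without KO451, 0.20 without KO457 and 0.04 without KO452. The Trbv median, near 0 with all libraries, was 0.48 without WT454, 0.47 without WT455, 0.14 without KO451, 0.09 without KO457 and -0.30 without KO452. With all libraries the knockout means of the sums, 1278 ± 313 for Trav and 2499 ± 722 for Trbv (SD, n = 3), stood against wild-type means of 1607 ± 1246 and 3570 ± 2572 (SD, n = 3). These p-values measure the spread between the animals here. With 3 animals against 3, an exact permutation test of any single value cannot go below 0.1.

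**Figure D3:**
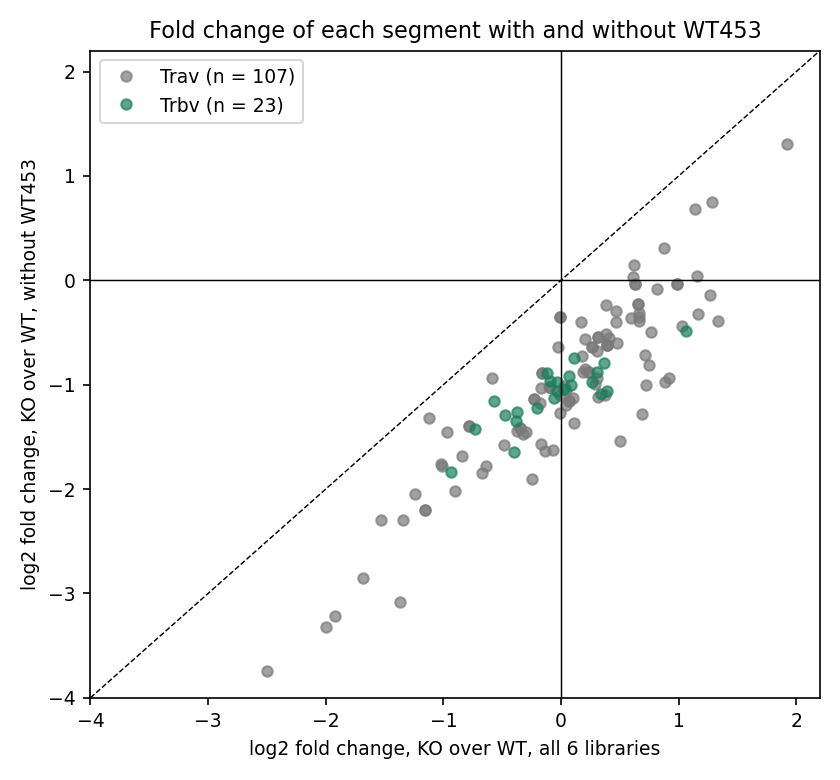
Log2 fold change of each segment, knockout over wild type, with all 6 libraries (x axis) and without WT453 (y axis), Trav in grey and Trbv in green, 1 point per segment; the dashed line marks equal values. The points lie below that line, and on the y axis all 23 Trbv points and 100 of the 107 Trav points lie below 0.

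Relative to the constant regions, the V sums of the knockout spleens were close to those of WT454 and WT455. The mean ratio of Trav sum to Trac was 0.365 ± 0.0568 (SD, n = 3) in the knockout and 0.355 over WT454 and WT455. For Trbv it was 0.507 ± 0.0716 (SD, n = 3) and 0.508. These differences were smaller than the spread within the knockout group. Relative to the summed T cell list, the Trav sum was 0.0454 to 0.0525 in those 5 libraries and 0.00824 in WT453, and the Trbv sum was 0.0916 to 0.104 and 0.0290.

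Beta segments had the highest levels per length. The median Trbv segment had 318 normalized counts per kb of exon and the median Trav segment 30.3, and all levels per kb below are means over the 6 libraries. Trbv13-2 led with 796 per kb, followed by Trbv3 with 630, Trbv16 with 591, Trbv15 with 588, Trbv13-1 with 538, Trbv13-3 with 537, Trbv29 with 429 and Trbv1 with 392. The lowest were the pseudogenes Trbv22 (5.71 per kb) and Trbv24 (8.02), and then Trbv23 (33.7) and Trbv30 (49.97).

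Trbv3 stood at 214, 314 and 255 normalized counts in KO451, KO452 and KO457, at 72.1 in WT453, and at 420 and 444 in WT454 and WT455. The log2 difference was 0.11 ± 0.69 (SE) with all libraries and -0.74 ± 0.21 without WT453 (limma adjusted p 0.972 and 0.236). The knockout libraries lay above WT453 and below the other wild-type libraries, a pattern shared by the 3 Trbv13 segments, Trbv1, Trbv15, Trbv16, Trbv29 and Trbv31.

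The Trbv13 segments, known in the older naming as the Vβ8 family, are widely used and are favoured by natural killer T (NKT) cells, as are Trbv1 and Trbv29. Trbv13-2 had 181, 303 and 218 normalized counts in the knockout libraries and 54.6, 463 and 405 in WT453, WT454 and WT455. Trbv13-1 had 148, 219 and 167, and 26.8, 370 and 250. Trbv13-3 had 125, 167 and 154, and 32.0, 349 and 268. All 3 gave a difference near 0 with WT453 (0.07 ± 0.79, 0.36 ± 0.91 and 0.03 ± 0.85, log2 ± SE) and one near -1 without it (-0.92 ± 0.27, -0.79 ± 0.28 and -1.05 ± 0.22, limma adjusted p 0.240, 0.264 and 0.226).

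Trbv1 had 91.1, 179 and 125 normalized counts in the knockout libraries and 28.9, 278 and 279 in WT453, WT454 and WT455. Trbv29 had 51.5, 165 and 90.4, and 20.6, 320 and 261, with the widest spread of the leading beta segments. Their differences without WT453 were -1.13 ± 0.33 and -1.64 ± 0.54 (log2 ± SE, limma adjusted p 0.240 and 0.250), and with it -0.06 ± 0.87 and -0.40 ± 1.04. The NKT-associated beta segments thus ran with the other beta segments, whose median without WT453 was -1.06.

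Trbv15 and Trbv16, neighbours on the chromosome, had 144, 250 and 144 and 135, 243 and 150 normalized counts in the knockout libraries. In WT453, WT454 and WT455 they had 42.3, 346 and 378 and 63.9, 417 and 402. Trbv31, which joins by inversion because it points against the constant regions, had 80.4, 135 and 125, and 16.5, 255 and 164. Without WT453 the differences of Trbv15, Trbv16 and Trbv31 were -1.06 ± 0.31, -1.26 ± 0.31 and -0.88 ± 0.35 (log2 ± SE), and with it -0.04 ± 0.82, -0.38 ± 0.73 and 0.30 ± 0.95. Position and orientation did not set Trbv31 outside the range of the other beta segments, which ran from -1.84 to -0.49 without WT453.

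**Figure D4:**
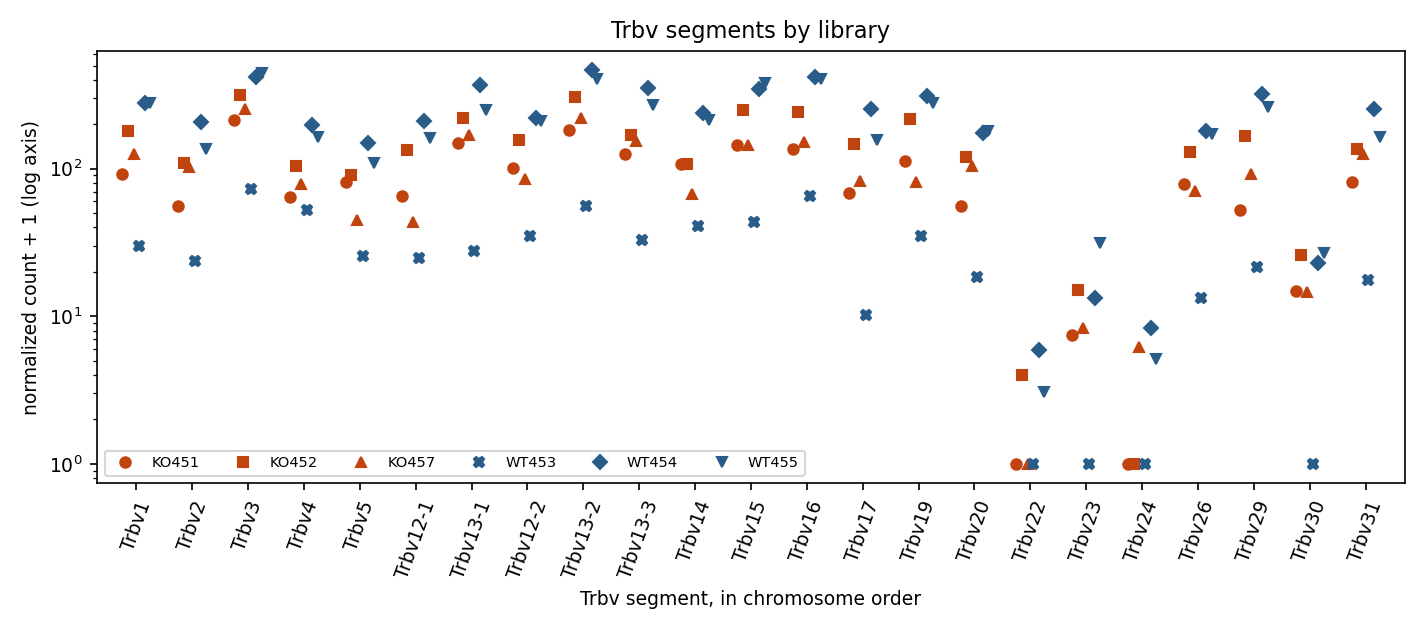
Normalized count + 1 (log axis) of the 23 Trbv segments in chromosome order, 1 point per library, knockout in orange and wild type in blue. WT453 (crosses) is the lowest point of 21 segments, WT454 and WT455 are the highest of most, and Trbv22, Trbv23, Trbv24 and Trbv30 lie far below the rest in every library.

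The mix of beta segments was much alike in all libraries. Shares of Trbv reads correlated across the 23 segments with Pearson's r of 0.89 to 0.97 between pairs of the 5 libraries other than WT453 and of 0.78 to 0.87 between those and WT453, given as a description over segments that share each library's depth. Trbv3 or Trbv13-2 took the largest share of Trbv reads in each library. Trbv13-2 took 9.19%, 9.12% and 9.90% of Trbv reads in KO451, KO452 and KO457 and 8.70%, 8.58% and 8.64% in WT453, WT454 and WT455. The knockout libraries lay above the wild-type libraries by less than the counting error of single libraries, since the exact 95% binomial intervals ran from 7.91 to 10.6% in KO451 and from 7.92 to 9.28% in WT454. Trbv16 took 6.85%, 7.31% and 6.79% in the knockout and 10.2%, 7.73% and 8.57% in the wild type, with no overlap. Trbv30 was the other segment whose share did not overlap, at 0.613 to 0.753% in the knockout and 0 to 0.554% in the wild type. Shares without overlap were thus found in 3 of 23 Trbv segments, 2 above (8.7%) and 1 below (4.35%), and in 5 of 107 Trav segments, 4 above (3.74%) and 1 below (0.935%). None of these percentages exceeds the 9.54% and 9.94% of all genes whose levels lay wholly above or below, and shares within a locus are tied to each other by their sum.

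Trbv4 had an unusual share in WT453. It took 8.21% of Trbv reads there (50 of 609, exact 95% interval 6.15 to 10.7%), against 3.10 to 3.63% in the other 5 libraries, and ranked 4 there against 14.5 to 18 elsewhere. In normalized counts Trbv4 stood at 51.5 in WT453 and at 63.3, 103, 77.9, 196 and 164 in KO451, KO452, KO457, WT454 and WT455. Trav9-1 did likewise among the alpha segments, with 10.98% of Trav reads in WT453 (19 of 173, exact 95% interval 6.74 to 16.6%) against 1.53 to 1.95% elsewhere. Its normalized count was 19.6 in WT453 and 16.1, 28.0, 20.8, 48.1 and 35.3 in the same order. Both were chosen after their values were seen. The Trav interval takes all 173 reads as independent, although copies with the same coding sequence had the same or nearly the same counts.

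Alpha segments had low counts, and several of the leading ones were not read at all in WT453. By level per kb they were led by Trav14-2 (102), Trav14n-3 (95.6), Trav4-4-dv10 (90.5), Trav6-6 and Trav12-2 (83.1 each), Trav6d-6 (82.6), Trav16n (77.9) and Trav3-3 (76.1), neighbours in an order whose steps are smaller than the spread between libraries. Trav14-2 had 28.9, 72.0 and 30.1 normalized counts in KO451, KO452 and KO457 and 12.4, 47.3 and 46.8 in WT453, WT454 and WT455. KO452 was its highest library, above every wild-type library, and the groups overlapped with or without WT453 (log2 difference 0.38 ± 0.67 SE, and -0.23 ± 0.52 without WT453).

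Trav12-2 had 18.2, 40.0 and 16.6 normalized counts in the knockout libraries, 0 in WT453, and 71.0 and 66.5 in WT454 and WT455. Its 0 of 173 Trav reads in WT453 has an exact 95% upper bound of 2.11% of Trav reads, and its share was 1.45 to 3.06% in the other libraries. That bound has the same limit as the Trav9-1 interval. Trav16n had 18.2, 35.0 and 20.8 in the knockout libraries, 0 in WT453, and 70.2 and 49.9. Both moved from a difference above 0 with WT453 (0.51 ± 1.60 and 0.69 ± 1.55, log2 ± SE) to one below 0 without it (-1.54 ± 0.50 and -1.28 ± 0.43, limma adjusted p 0.246 and 0.253).

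Trav3-3, Trav4-4-dv10 and Trav14n-3 are functional alpha segments, and the ending dv of a name marks a segment that delta chains can use as well. Trav3-3 had 18.2, 34.0 and 38.4 normalized counts in the knockout libraries and 5.15, 38.3 and 57.1 in WT453, WT454 and WT455. Trav4-4-dv10 had 18.2, 32.0 and 55.1, and 6.18, 40.0 and 44.7. Trav14n-3 had 20.4, 55.0 and 18.7, and 3.09, 65.3 and 44.7. WT453 was the lowest library in each, and in each the knockout values reached into those of WT454 and WT455 (without WT453, -0.68 ± 0.47, -0.40 ± 0.55 and -0.94 ± 0.61, log2 ± SE).

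Against this background 2 segments were higher in every knockout library than in every wild-type library, Trav10n and Trav6-4, where 9.54% of all genes were, and 0 were lower, where 9.94% of all genes were. Trav10n had 11.8, 21 and 12.5 normalized counts in KO451, KO452 and KO457 and 2.06, 7.34 and 9.35 in WT453, WT454 and WT455. Its log2 difference was 1.28 ± 0.67 SE (limma adjusted p 0.524), and 0.75 ± 0.43 without WT453. Trav6-4, named after its values were seen, had 8.58, 8 and 7.27 in the knockout libraries and 0, 3.26 and 2.08 in the wild-type libraries (1.92 ± 0.74, adjusted p 0.420, and 1.3 ± 0.35 without WT453, adjusted p 0.235). They rest on few reads, and 2 of 130 segments is a smaller share than the background.

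Trav10n has close relatives that did not move with it. Trav10 had 32.2, 18 and 6.23 normalized counts in the knockout libraries and 8.25, 48.9 and 56.1 in WT453, WT454 and WT455. Trav10d had 5.36, 0 and 4.16, and 0, 8.16 and 13.5. Without WT453 both were lower in all knockout libraries than in both wild-type libraries (-1.69 ± 0.75 and -1.85 ± 0.97, log2 ± SE), while Trav10n was higher. The coding sequences, shown because so few bases separate segments with opposite differences, are 343 bases each and differ at 6 positions. Bases 30 to 270, counted from the start codon, are given with those positions in capitals.
Trav10: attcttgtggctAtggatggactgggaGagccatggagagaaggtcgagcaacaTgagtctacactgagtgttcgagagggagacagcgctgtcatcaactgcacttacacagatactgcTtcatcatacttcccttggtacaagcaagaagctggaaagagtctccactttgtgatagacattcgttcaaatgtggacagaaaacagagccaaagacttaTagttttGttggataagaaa
Trav10d: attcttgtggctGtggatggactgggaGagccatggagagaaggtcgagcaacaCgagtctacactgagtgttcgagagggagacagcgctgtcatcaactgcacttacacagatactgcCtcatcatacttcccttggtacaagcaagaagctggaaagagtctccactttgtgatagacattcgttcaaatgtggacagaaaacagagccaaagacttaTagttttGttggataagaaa
Trav10n: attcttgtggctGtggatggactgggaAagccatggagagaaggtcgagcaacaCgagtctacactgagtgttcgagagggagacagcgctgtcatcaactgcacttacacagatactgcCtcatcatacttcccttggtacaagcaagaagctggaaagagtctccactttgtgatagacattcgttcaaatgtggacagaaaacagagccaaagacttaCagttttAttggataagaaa

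Trav10 and Trav10d differ from each other at 3 of the positions, as do Trav10d and Trav10n, and Trav10 and Trav10n differ at all 6. Over the 6 libraries the authors' table gave Trav10, Trav10d and Trav10n 176, 32 and 64 reads. GRCm38 is built from C57BL/6J mice, and the segments of the 129S6 mice used here were not analysed.

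Many alpha segments are copies of one another, and copies with the same coding sequence had the same or nearly the same counts. The middle of the alpha locus is repeated, and copies carry the letters d and n in their names (32 and 29 of the 107 members, beside 46 with neither). Of 397 pairs of segments within a subgroup (Trav6, Trbv13 and so on), 18 pairs had the same coding sequence over the aligned bases, which took in 36 Trav segments and 0 Trbv segments. In 14 of those 18 pairs both copies had exactly the same number of reads in all 6 libraries, and in the other 4 they differed by at most 1 read in any library. Among pairs with 1 or more differing bases, 0 had the same reads, and the 5 pairs with 1 to 2 differing bases had a largest difference in a library of up to 42 reads, with a median of 17. Trav6-6 and Trav6d-6 were such a pair with the same coding sequence, with 15.0, 35.0, 26.0, 0, 57.1 and 38.4 normalized counts for Trav6-6 and 13.9, 35.0, 26.0, 0, 57.1 and 38.4 for Trav6d-6, in the order KO451, KO452, KO457, WT453, WT454, WT455. Values of such pairs cannot be told apart, and how the authors counted reads that match several copies is not given in what was used here. Counting members with the same whole transcript model once leaves 116 segments. The beta segments were further apart, with at most 90.6% identity, between Trbv13-2 and Trbv13-3.

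**Figure D5:**
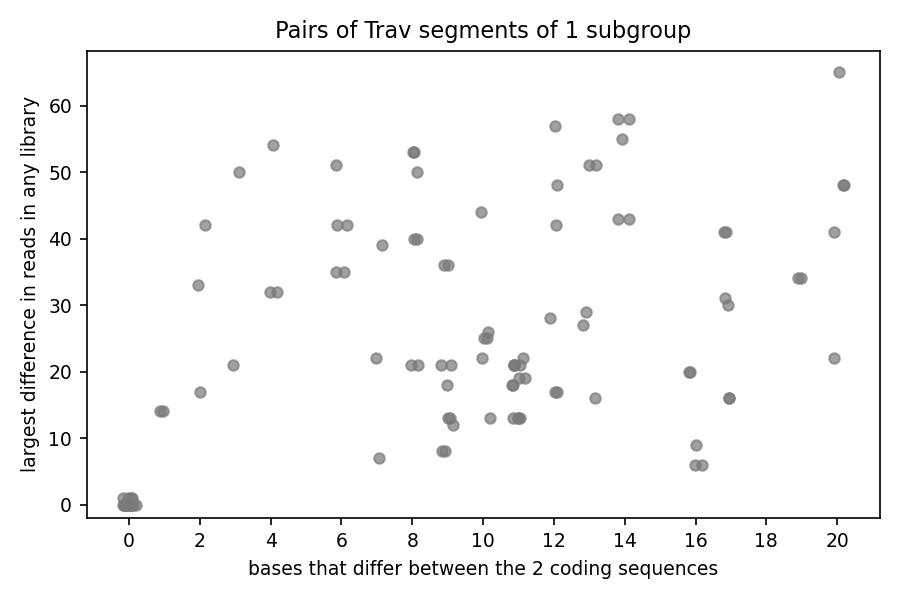
Bases that differ between the coding sequences of 2 Trav segments of a subgroup (x axis, points spread slightly sideways for sight) against the largest difference in reads between them in any library (y axis, linear), 1 point per pair for the 106 pairs with up to 20 differing bases. Pairs with 0 differing bases lie at 0 or 1 reads and all others lie above them.

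Copies and the rest gave medians of like size once WT453 was left out. The median log2 difference was 0.03 for segments with d in their name, 0.10 for those with n and 0.27 for the others, and -0.93, -1.05 and -0.94 without WT453. Most of the 18 pairs with the same coding sequence join a d copy to an n copy, and the rest join a d copy to one of the others. Their reads were the same or nearly the same, so these medians share measurements and their likeness was partly fixed in advance.

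The semi-invariant T cells have fixed alpha chains. By level per kb Trav11d stood at 36.5 and Trav11 at 36.4, above the median Trav segment, and Trav1 at 9.41 and Trav11n at 7.13, below it. Trav11 joined to Traj18 makes the alpha chain of NKT cells, which see lipids on CD1d. Trav11 and Trav11d had the same reads in all 6 libraries, 17.2, 9 and 5.19 normalized counts in the knockout libraries and 2.06, 15.5 and 26.0 in WT453, WT454 and WT455. The groups overlapped, and the log2 difference of Trav11 was -0.09 ± 0.93 SE, and -1.02 ± 0.62 without WT453 (limma adjusted p 0.984 and 0.419). The third copy Trav11n, a pseudogene in the annotation, had 2.14, 0 and 0, and 0, 7.34 and 5.19.

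Trav1 joined to Traj33 makes the alpha chain of mucosal-associated invariant T cells, which see vitamin B metabolites on MR1. Trav1 had 0, 9 and 6.23 normalized counts in the knockout libraries and 0, 5.71 and 0 in the wild-type libraries (log2 difference 1.14 ± 1.19 SE). At these counts no difference was detectable. Traj18 reached at most 1.63 and Traj33 at most 2.08 normalized counts in any library, and neither had the mean of 1 needed for the test. Of the 6 tested genes of an NKT and MAIT list, 5 were below 0 with all libraries and 6 without WT453 (medians -0.47 and -0.73). Limma called 0 of them in either fit. At an unadjusted p under 0.05, 1 was lower with all libraries and 4 without WT453. The authors' deposited table gave 1 an FDR under 0.05, Cd1d1 (0.0143), which encodes the molecule that shows lipids to NKT cells. It had 657, 888 and 701 normalized counts in KO451, KO452 and KO457 and 1467, 1255 and 1154 in WT453, WT454 and WT455, with no overlap (-0.79 ± 0.22, log2 ± SE, limma adjusted p 0.347). Without WT453 the difference of Cd1d1 was -0.70 ± 0.17. Zbtb16, the transcription factor of innate-like T cells, had 39.7, 47.0 and 31.2 normalized counts in the knockout libraries and 20.6, 78.3 and 82.1 in WT453, WT454 and WT455.

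Fewest alpha segments were read in WT453, the library with the fewest Trav reads, and most in WT454, the library with the most. Of the 107 Trav segments 94, 92 and 90 had a read in KO451, KO452 and KO457, and 50, 107 and 99 in WT453, WT454 and WT455. Brought to the 173 Trav reads of WT453, the expected number was 71.4, 68.6 and 68.7 in the knockout libraries, 50 in WT453, and 74.6 and 72.0 in WT454 and WT455. The effective number of Trav segments (the exponential of the Shannon entropy of their shares of Trav reads, not adjusted for depth) was 76.8, 72.6 and 71.3, and 39.6, 84.6 and 79.1. At equal depth the knockout libraries lay just below WT454 and WT455 and well above WT453. Copies with the same coding sequence enter these Trav numbers as separate segments, and their counts as independent reads. The Trbv mix had an effective number of 17.8 to 18.5 in the knockout and 16.8, 18.7 and 18.4 in WT453, WT454 and WT455. Brought to the 609 Trbv reads of WT453, the expected number of Trbv segments was 20.9 to 21.7 in the knockout. It was 19 in WT453 and 21.7 in both WT454 and WT455, so that WT453 was lowest by both measures.

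Shares of reads by position along the alpha locus were alike in both genotypes. Segments near Trac tend to be joined first in thymocytes, and distal ones in later rounds. The 36 segments nearest Trac (344 to 777 kb away) took 49.5 ± 2.70% of Trav reads in the knockout and 49.6 ± 5.65% in the wild type (SD, n = 3 each). The 35 in the middle took 26.6 ± 1.16% and 26.7 ± 3.19%, and the 36 farthest 23.9 ± 1.53% and 23.7 ± 2.55%. In each of these groups of segments the genotypes differed by less than the spread between libraries. Copies with the same coding sequence had the same or nearly the same counts and can lie in different groups. The position of their reads is therefore not known, and these shares hold repeated measurements. Median log2 differences from nearest to farthest were 0.27, 0.07 and 0.12, and -0.94, -1.05 and -0.93 without WT453.

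The rest of the receptor was measured by its constant regions and signalling chains. All 7 genes of the receptor complex (Trac, Trbc1, Trbc2, Cd3e, Cd3d, Cd3g and Cd247) were below 0 in both fits, with a median of -0.50 and of -0.96 without WT453. Limma called 0 of them in either fit, with 1 lower at an unadjusted p under 0.05 with all libraries and 6 without WT453, and the authors' deposited table gave 0 of them an FDR below 0.05. Whether they differed from the V segments in their change was not tested. Trac gave -0.49 ± 0.43, Trbc1 -0.90 ± 0.34 and Trbc2 -0.77 ± 0.33 with all libraries (log2 ± SE), and -0.92 ± 0.34, -1.07 ± 0.38 and -1.01 ± 0.34 without WT453. Cd3g, a signalling chain that carries the receptor to the surface, had 1996, 3807 and 2782 normalized counts in the knockout libraries and 1854, 5529 and 4787 in WT453, WT454 and WT455. Trdc, the delta constant region that lies within the alpha locus, had 243, 468 and 264, and 282, 605 and 712 (-0.67 ± 0.43, log2 ± SE, and -1.07 ± 0.34 without WT453). The unlike behaviour of WT453 in V segments did not extend to these genes at the same size.

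The coreceptors decide which antigen-presenting molecule a receptor reads. Cd8a, a chain of the coreceptor for MHC class I, had 1260, 2709 and 1500 normalized counts in the knockout libraries and 1151, 4195 and 4531 in WT453, WT454 and WT455. Cd8b1, its partner chain, had 1526, 2737 and 1654, and 1065, 5318 and 5670. Cd4, the coreceptor for MHC class II, had 2621, 4234 and 2489, and 1916, 4531 and 4228, so that it overlapped between the groups with or without WT453, which Cd8a and Cd8b1 did only with it. Without WT453 the differences of Cd8a, Cd8b1 and Cd4 were -1.34 ± 0.37, -1.53 ± 0.29 and -0.53 ± 0.27 (log2 ± SE). Limma called none of these 3 in either fit (0 at an unadjusted p under 0.05 with all libraries, and 2 without WT453), and the authors' deposited table gave none an FDR below 0.05. Whether the CD8 genes differed from Cd4 was not tested.

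Among 16 genes of receptor signalling 13 were below 0, and 15 without WT453 (medians -0.36 and -0.82). Limma called 0 of them in either fit, with 1 lower at an unadjusted p under 0.05 with all libraries and 12 without WT453. The authors' deposited table gave 1 an FDR below 0.05, Lat (0.0204), the adaptor that gathers signalling proteins below the receptor. Lat had 824, 1954 and 1244 normalized counts in the knockout libraries and 3163, 3014 and 2512 in WT453, WT454 and WT455 (-1.19 ± 0.32, log2 ± SE, limma adjusted p 0.345). The groups did not overlap, and WT453 was the highest library. Without WT453 the difference of Lat was -1.13 ± 0.40. Ptprc, the phosphatase CD45 that sets the receptor's kinases, gave -0.38 ± 0.28 (log2 ± SE), Csk -0.18 ± 0.36, the exchange factor Vav1 -0.47 ± 0.27 and the adaptor Lcp2 0.17 ± 0.17. Without WT453 they gave -0.66 ± 0.17, -0.59 ± 0.18, -0.18 ± 0.09 and 0.16 ± 0.10 in the same order. Of 12 transcription factors that act on the alpha and beta loci 8 were below 0, and 11 without WT453 (medians -0.36 and -0.80). Limma called 0 of them in either fit, with 2 lower at an unadjusted p under 0.05 with all libraries, and 7 lower and 1 higher without WT453. The authors' deposited table gave 1 an FDR below 0.05, Satb1 (0.000882), an organiser of chromatin in T cells. Tcf7, Ets1, Satb1 and Ikzf1 gave -0.53 ± 0.56, -0.30 ± 0.62, -1.03 ± 0.23 and 0.95 ± 0.89 with WT453 (log2 ± SE). Without it they gave -1.22 ± 0.26, -1.07 ± 0.27, -1.16 ± 0.19 and -0.22 ± 0.13.

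The genes that cut and join V segments had differences above 0. Rag1, a subunit of the recombinase, had 387, 334 and 1532 normalized counts in the knockout libraries and 34.0, 103 and 48.8 in WT453, WT454 and WT455. Rag2, its partner, had 38.6, 21 and 136, and 0, 7.34 and 5.19. Dntt, which adds bases at the junctions, had 241, 145 and 380, and 74.2, 139 and 151. The groups did not overlap for Rag1 and Rag2 and overlapped for Dntt, whose KO452 value lay below WT455. The log2 differences were 3.37 ± 0.67, 3.72 ± 1.03 and 1.03 ± 0.46 (SE, limma adjusted p 0.344, 0.348 and 0.473), so limma called none, and 2 were higher at an unadjusted p under 0.05. Without WT453 the differences were 3.02 ± 0.82, 2.78 ± 0.90 and 0.71 ± 0.45. In the authors' deposited table the FDR was 4.05e-06 for Rag1 and 0.00338 for Rag2. Ptcra, the surrogate alpha chain of thymocytes, was searched by its symbol and was not among the genes of the authors' deposited table.

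Markers of other cell types were measured in the same libraries. The 6 red cell genes of an erythroid list were all above 0 (median 3.02, and 2.62 without WT453), and their sum was 55493 to 263369 normalized counts in the knockout and 6144 to 24226 in the wild type. The 5 red pulp macrophage genes were all above 0 (median 1.27, and 0.79 without WT453), with sums of 109147 to 178240 and 26408 to 91572. All 6 B cell genes were below 0 (median -0.55, and -1.11 without WT453), with sums of 46688 to 89102 and 45137 to 141572. All 5 NK cell genes were below 0 (median -0.35, and -1.02), with sums of 3170 to 5011 and 2473 to 7355. The sums did not overlap between the genotypes for the red cell and macrophage genes, and overlapped for the B cell and NK cell genes. The 2 measured pancreas genes summed to at most 8.58 in any library. Limma called none of these list genes in either fit. Genes with an unadjusted limma p under 0.05 are given next, with the share of all genes in brackets. With all libraries 6 of 6 red cell and 3 of 5 macrophage genes were higher (5.5%). In the same fit 1 of 6 B cell and 1 of 5 NK cell genes were lower (5.46%). Without WT453, 6 of 6 red cell and 2 of 5 macrophage genes were higher (8.53%). In that fit 6 of 6 B cell and 4 of 5 NK cell genes were lower (9.67%). The authors' deposited table gave an FDR below 0.05 to 5 red cell genes, 1 macrophage gene, and 0 B cell and 0 NK cell genes. No defining marker that was found by its symbol was at 0 in every library. Some listed markers were not found. The part of these cell types in the levels of the V segments was not tested. Beside them, the B cell and NK cell medians without WT453 were of the same size as those of Trav (-0.94) and Trbv (-1.06).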

How the data were processed

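Spleen RNA of 3 knockout and 3 wild-type mice was made into libraries with a kit for mRNA, per the labels' protocols. GRCm38, DESeq, StringTie 1.3.1c, STAR 2.5.3a and FastQC 0.11.5 are named, with no role, per the submitters' processing notes. How reads were counted, those that match several copies included, and with which strand setting is not given in the sources used here. What the authors deposited is 1 table of log2 values, log2(read count / size factor + 1), as read from the values: 100% were whole multiples of 1 step per library within 0.001. It also holds the authors' log2 fold change, p-value and FDR, deposited with no stated test beyond the name DESeq.

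Because the values are log2 values, limma 3.58.1 with an intensity trend (R 4.3.3) was fitted to the deposited values with pseudocount 1, on 22071 genes with a mean of at least 1, leaving out 4381, with Benjamini-Hochberg adjustment and a threshold of 0.05. It was also run on simulated counts that had the same dispersion for every gene and no library set apart. That run does not show how the test performs on these data. Fold changes on this scale understate those of low counts. Positions and sequences come from GENCODE M21 of GRCm38, which held all 130 segments and 26404 of 26452 identifiers. Exact binomial intervals have a level of 95%.

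Members and gene lists were chosen with earlier results of these data known. Segments were named as the 8 with the highest level per kb in each locus, those called, those with an FDR under 0.05, up to 4 per direction with the largest change at a mean of at least 10 and no overlap, and the segments of invariant and NKT chains and Trbv31. Up to 4 genes with the highest mean were named per list. Other named segments, Lat and Zbtb16 were chosen after their values were seen. The alternatives were pseudocounts of 0.1 and 0.01, other filters, scalings and limma settings (voom on the whole reads among them), a threshold of 0.01, summed subgroups, and each library left out.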

Additional observations from a re-analysis of the deposited data

How the results depend on the processing

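No paired analysis was possible because the groups share no replicate number. The count of V segments called was 0 under each alternative run, that is pseudocounts, filters, scalings, limma settings, thresholds, summed subgroups, copies counted once (added after seeing the data) and each library left out. The count of all genes called was 2 under the main setting. It was 3 with scaling to reads without immunoglobulin and haemoglobin, 10 without the trend and 1 with voom. At a threshold of 0.01 it was 0, and with a library left out it was 0 to 2. Leaving out a library moved the median log2 fold change from -0.94 to 0.75 for Trav and from -1.06 to 0.48 for Trbv. It moved the log2 ratio of summed levels from -0.86 to 0.12 for Trav and from -1.01 to -0.09 for Trbv, and that of V to constant ratios from 0.04 to 0.84 and from -0.0033 to 0.75. Among other alternatives the medians stayed between 0.07 and 0.37 for Trav and between -0.12 and -0.02 for Trbv. The ranges with a library left out were -0.97 to 1.96 for Trav6d-6, -1.02 to 0.55 for Trav11 and Trav11d, -1.28 to 1.79 for Trav16n, -0.94 to 1.07 for Trav14n-3, -0.94 to 1.99 for Trav6-6, -1.54 to 1.55 for Trav12-2, -0.23 to 0.69 for Trav14-2, -0.68 to 0.94 for Trav3-3 and -0.40 to 0.94 for Trav4-4-dv10. Among beta segments they were -1.13 to 0.48 for Trbv1, -0.74 to 0.56 for Trbv3, -0.79 to 1.08 for Trbv13-1, -0.92 to 0.61 for Trbv13-2, -1.05 to 0.66 for Trbv13-3, -1.06 to 0.51 for Trbv15, -1.26 to 0.0803 for Trbv16, -1.64 to 0.30 for Trbv29 and -0.88 to 1.05 for Trbv31. They were 0.51 to 2.17 for Trav1, 0.75 to 1.63 for Trav10n and -2.29 to -0.76 for Trav11n. Taken as a share of the T cell list, the log2 ratio of summed levels turned from -0.33 to 0.53 for Trav. For Trbv it turned from -0.51 to 0.29, both with all libraries. Among named segments signs also turned under quantile normalization for Trav11 and Trav11d (0.12), under scaling to reads without immunoglobulin and haemoglobin for Trbv13-2 (-0.0179) and Trbv13-3 (-0.0612), and with voom for Trbv13-3 (-0.0088). The cause was not tested. Depth limits the alpha segments most, at 173 Trav reads in WT453.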
